A study of Drosophila melanogaster with 10 samples.

Results

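The cuticle protein genes of Drosophila melanogaster were described in whole adult females of 10 laboratory lines. Members were the genes whose symbol, given alone for a probe set (the group of short probes that measures a transcript), begins with Cpr, Lcp or Edg and a number or with Ccp84, together with Pcp, Acp65Aa and Acp1. This gave 73 genes of the 10845 named alone on the array, measured by 75 probe sets, and a gene with more than 1 was read from the brighter. Heat-selected flies came from 5 lines bred for resistance to heat, and control flies from 5 unselected lines. Each line gave 1 sample of total RNA and 1 array. Per the series design text the lines were independent of each other, so differences among arrays of a group include differences among lines. The labels used here give no strain, age, mating status or treatment before sampling. Levels are log2(intensity + 1) throughout, from probe set intensities that the authors normalized, and a difference is the mean of the heat-selected lines minus the mean of the control lines.

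The insect cuticle is built by the epidermis from chitin fibres and proteins. Most cuticle proteins belong to the Cpr family, named for the Rebers and Riddiford sequence that binds chitin, and the older names Lcp, Ccp, Pcp, Edg and Acp record the stage or hormone by which the genes were found (larval cuticle, cuticle cluster, pupal cuticle, ecdysone-dependent and adult cuticle). A new cuticle is laid down before each moult, and that of the fly is completed and tanned around and shortly after it leaves the pupal case, so most of these genes are best known from larvae, pupae and newly emerged adults.

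Array medians were 41.9 to 48.3 on the intensity scale. The female markers matched the label: 4 of 5 listed markers were on the array (Yp1, Yp2, Yp3 and Cp36), at 12.1 to 14.9, with summed levels of 54.1 to 55.6 in heat-selected and 55.1 to 56.2 in control lines. Of 8 markers of male tissue, 7 were on the array, none above 4.57, with summed levels of 21.6 to 23.4 in heat-selected and 20.7 to 23.0 in control lines. The 3′ probe sets of actin, eIF-4a and GAPDH exceeded their 5′ probe sets, a difference that widens in degraded RNA, by 2.76 in heat-selected line 1 and 2.27 in control line 1, against 1.43 to 1.93 in the others.

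Many cuticle protein genes gave little signal in these flies. The 23 probe sets of other organisms on the array, which have no target in fly RNA, reached 2.13 to 3.64, and 36 of the 73 members did not exceed 3.64 in any line. Another 22 members exceeded it in every line and 15 in some lines only. The span between the highest and lowest of the 10 lines was under 0.5 for 47 members and over 1 for 12. To be tested between the groups, a gene had to exceed a level of 3 on 5 or more arrays of either kind. This was met by 46 members, 43 of them on all 10 arrays.

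The 3 largest gaps between a highest line and the other lines belonged to 1 line. Heat-selected line 3 carried the adult cuticle genes Acp1 and Acp65Aa and the Cpr gene Cpr92F far above all other lines. Acp1 had levels of 6.37, 6.86, 11.21, 5.96 and 5.09 in heat-selected lines 1 to 5, against 5.37, 5.22, 4.57, 5.19 and 5.72 in control lines 1 to 5. Heat-selected line 3 was thus 57.3-fold above the median of the other 9 lines on the scale of intensity + 1, and 4.36 log2 units above the next line. The groups overlapped, since heat-selected line 5 lay below 4 of the control lines, while heat-selected lines 1, 2 and 4 lay above all of them. RNA of whole flies was measured, so a change in the number of cells of a type and a change in RNA per cell cannot be told apart.

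Acp65Aa, which encodes an adult cuticle protein and lies among larval cuticle genes of the same chromosome region, had levels of 3.78, 4.42, 7.55, 3.37 and 3.31 in heat-selected lines 1 to 5, against 4.45, 3.42, 3.13, 3.55 and 4.16 in control lines 1 to 5. The median of the other 9 lines (3.55) was below the highest level of the probe sets of other organisms (3.64). Heat-selected line 3 was 15-fold above that highest level on the scale of intensity + 1. The other lines of the groups overlapped, and the next highest was control line 1. Cpr92F had levels of 3.96, 3.82, 7.13, 3.79 and 3.59 in heat-selected lines 1 to 5, against 3.47, 3.80, 3.75, 3.68 and 3.75 in control lines 1 to 5. It was 10.4-fold above the median of the other 9 lines in heat-selected line 3, and those 9 lines lay at 3.47 to 3.96, around the top of the range of the probe sets of other organisms (3.64).

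**Figure D1:**
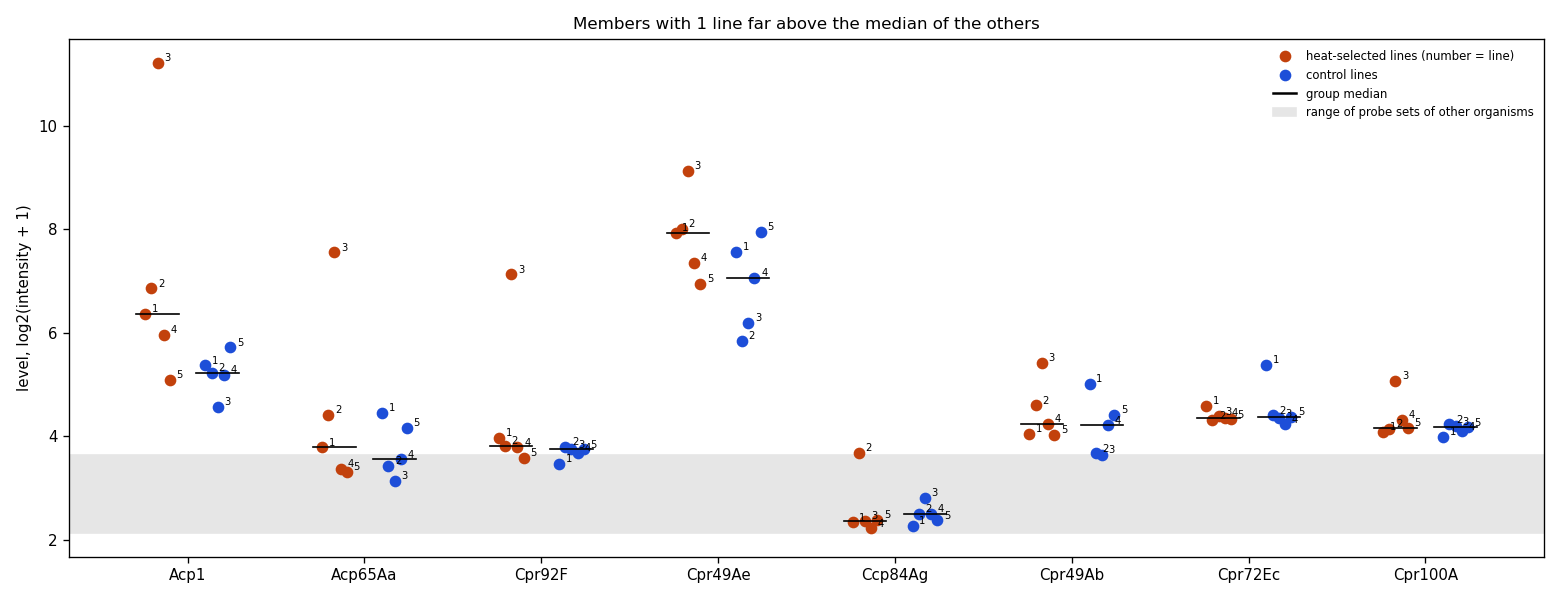
Levels, as log2(intensity + 1), of the 8 cuticle protein genes with the largest gap between their highest line and the median of the other 9. Each point is 1 line with its number, heat-selected lines stand left of control lines, bars are group medians, and the grey band is the range of 23 probe sets of other organisms. Heat-selected line 3 stands alone for Acp1 (11.21), Acp65Aa (7.55) and Cpr92F (7.13).

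Further Cpr genes had their highest value in the same line by smaller steps. Having the highest value was not particular to that line. Of 73 members, 13 were highest in heat-selected line 3, against 15 in heat-selected line 4 and 28 in control line 2. Cpr49Ae had levels of 7.93, 8.01, 9.13, 7.35 and 6.94 in heat-selected lines 1 to 5, against 7.57, 5.84, 6.19, 7.07 and 7.96 in control lines 1 to 5. Cpr49Ab, which lies in the same 49A cluster, had 4.05, 4.59, 5.41, 4.24 and 4.03 in heat-selected lines 1 to 5, against 5.01, 3.67, 3.64, 4.21 and 4.42 in control lines 1 to 5. Both were graded among the remaining lines too: the lowest were control lines 2 and 3, and control line 5 was among the 4 highest. Control line 3 was also the lowest of all lines for Acp1 and Acp65Aa, and heat-selected line 2 was among the 3 highest for all 4 genes. Cpr100A stood at 5.07 in heat-selected line 3 and at 3.99 to 4.32 in every other line. Cpr97Eb, at 4.76, and Cpr62Bb, at 4.67, also peaked in heat-selected line 3, but only 0.14 and 0.42 above the next line.

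Counted over the family, 5 of 73 members (Acp1, Acp65Aa, Cpr92F, Cpr49Ae and Cpr49Ab) lay more than 1 log2 unit above their own median over the 10 lines in heat-selected line 3, and all 5 were among the 46 tested. Of all 10960 features tested, 0.265% did so in that line. The same count was 2 in heat-selected line 2 (Acp1 and Ccp84Ag), 1 in control line 1 (Cpr72Ec) and 0 in each other line. Of the 2, only Acp1 was among the tested members. Of the features tested, 0.255% passed in heat-selected line 2 and 0.675% in control line 1. In the lines with no such member, the shares of features were 0.328%, 0.155% and 0.0547% in heat-selected lines 1, 4 and 5, and 0.173%, 0.1%, 0.0456% and 0.0365% in control lines 2 to 5. With 1 array per line, none of these line values has a replicate. Over all 73 members, the median deviation from the own median was 0.00038 in heat-selected line 3, and over all features it was -0.0015.

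**Figure D2:**
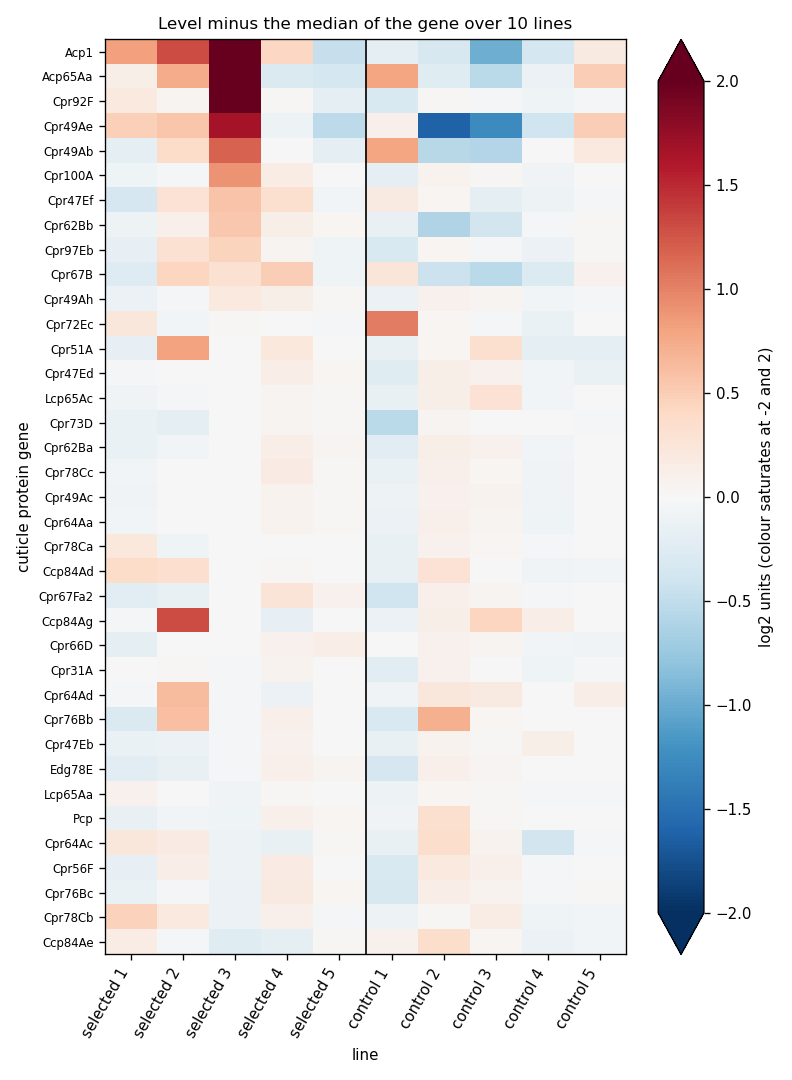
Level minus the median of the gene over 10 lines, in log2 units, for the 37 cuticle protein genes that exceeded the probe sets of other organisms in at least 1 line. Columns are lines, heat-selected left of control, and rows are ordered by heat-selected line 3. The strongest colours lie in heat-selected line 3 for Acp1, Acp65Aa, Cpr92F and Cpr49Ae, and most rows are close to 0 in all lines.

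Across the whole array, Acp1, Acp65Aa and Cpr92F held the first 3 places when features were ordered by the level in heat-selected line 3 minus the median of the other 9 lines. Cpr49Ae was the tenth, and 6 members were among the first 50. The places between Cpr92F and Cpr49Ae went to genes outside the family: CG11458 and CG8736, which had gaps of 2.76 and 2.70, then CG7203, the flight muscle gene fln, Vajk3 and CG7214. The muscle genes Act88F and Mlc1 were also among the first 50, but both were slightly higher in heat-selected line 4. Act88F was at 12.42 in heat-selected line 3 and 12.52 in heat-selected line 4, and Mlc1 at 12.01 and 12.02. For fln, heat-selected lines 3 and 2 were close, at 10.48 and 10.27. Vajk3, listed here with other cuticle protein families, was at 5.48 in heat-selected line 3 and at 3.42 to 3.74 elsewhere. The chitin deacetylase gene verm, whose product modifies the chitin fibres, was at 6.11 in heat-selected line 3 and at 5.47 in heat-selected line 2, against 3.81 to 4.70 in the other 8 lines. Both verm and Vajk3 were named for their values: Vajk3 was 1 of 27 tested genes of its list, and verm 1 of 34 of the chitin list, to lie more than 1 log2 unit above the own median in heat-selected line 3.

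Genes outside the family were ranked by the Pearson correlation of their levels with the mean centred profile of the 46 tested members over the 10 arrays, which all genes share. The 6 closest of 9626 were CG6225 (r = 0.956), CG11458 (r = 0.954), serp (r = 0.922), CG8736 (r = 0.919), qsm (r = 0.918) and CG15358 (r = 0.909). Of these, serp, like verm, encodes a chitin deacetylase and qsm a membrane-anchored protein of the clock neurons' light response. The values were 0.842, 0.779, 0.667, 0.699, 0.592 and 0.646, in the same order, without heat-selected line 3. The profile itself stood at 0.35 in heat-selected line 3 and between -0.13 and 0.086 in the other lines. The 5 raised members made up 15.8 of the summed deviation of 18.0 from the own medians in heat-selected line 3, where the median over the 46 was -0.0011, so the profile is mainly theirs in that line.

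Other genes of cuticle building and moulting were read from lists of textbook members. Chitin synthesis and modification had 34 tested genes, of which 4 were higher and 1 was lower at an unadjusted p under 0.05 from limma, where 5.55% and 3.97% of all features were, and 0 passed over all features. Their median difference was 0.036, and the 3 genes with the smallest p had differences of 0.38 (Idgf1), 0.25 (Idgf3) and 0.43 (obst-E, a chitin-binding protein). Tanning and pigment had 21 tested genes, 3 higher and 2 lower at that p, with 0 past over all features and a median difference of 0.038. Ddc, which makes the dopamine used to harden cuticle, led them with 7.85, 7.90, 7.90, 7.54 and 7.40 in heat-selected lines 1 to 5, against 7.62, 6.42, 6.69, 6.79 and 7.39 in control lines 1 to 5 (difference 0.73). The groups overlapped for Ddc, and heat-selected line 3 was level with heat-selected lines 1 and 2. Also higher at that p were speck (difference 0.39) and yellow-b (0.25), while yellow-g2 (-0.53) and amd (-0.41) were the lower genes.

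Among 27 tested genes of other cuticle protein families and of the apical matrix, 2 were higher and 0 lower at an unadjusted p under 0.05, near the shares of all features (5.55% and 3.97%). Over all features 0 passed, and the median difference was 0.017. The 2 were Vajk2 (difference 0.39), with all heat-selected lines at 7.84 to 8.02 and all control lines at 7.27 to 7.80, and the matrix gene pio (0.57). Of 15 tested genes of the ecdysone cascade, which times moults, 0 reached an unadjusted p under 0.05 in limma, and their median difference was 0.017. Of the eclosion hormone genes, 5 were tested and 0 reached that p, with a median difference of 0.025. Burs, whose hormone starts tanning after eclosion, was at 4.66 in heat-selected line 3, within the 4.60 to 4.92 of the heat-selected lines and the 4.47 to 4.88 of the control lines.

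Heat-selected line 3 also had the lowest mean level of egg production genes. Of 19 tested yolk and eggshell genes, 0 were higher and 10 lower at an unadjusted p under 0.05 in limma, where 5.55% and 3.97% of all features were. Over all features 0 passed, and the median difference was -0.53. The mean centred level of these genes was -0.86 in that line, against -0.51 to 0.18 in the other heat-selected lines and 0.078 to 0.45 in the control lines. The chorion gene Cp19 was at 11.71 in heat-selected line 3, at 12.44 to 13.10 in the other heat-selected lines and at 13.24 to 13.76 in the control lines. Not every gene of the list was lowest in that line. Cp36 was at 12.64 there, within 12.09 to 12.71 over the heat-selected lines, and Yp1 at 14.50, within 14.33 to 14.90. Of 6 listed genes of larval fat body, 3 were on the array (Lsp2, Fbp1 and Fbp2), with summed levels of 12.4 to 15.1 in heat-selected and 15.9 to 18.5 in control lines, and Lsp2, which encodes a larval serum protein, was at 6.29 in heat-selected line 3. Lsp2 lay at 4.57 to 7.58 over the heat-selected lines and at 8.34 to 10.53 over the control lines, a difference of -3.49 (adjusted p = 0.232 from limma) with groups that did not overlap. Of these 3, 0 were higher and 1 (Lsp2) lower at an unadjusted p under 0.05 in limma, 0 passed over all features, and the median difference was -0.057. The part of any of these, or of the age of the flies, in the cuticle gene values was not tested.

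The comparison of heat-selected with control lines asks which transcripts differ after selection for heat resistance. No cuticle protein gene passed: limma called 0 of the 46 tested members at an adjusted p under 0.05, as it called 0% of all features, and the smallest adjusted p of a member was 0.426. At an unadjusted p under 0.05, 1 member was higher and 0 were lower, against 5.55% and 3.97% of all features. That member was Cpr62Bb, with 4.03, 4.23, 4.67, 4.25 and 4.17 in heat-selected lines 1 to 5, against 3.98, 3.53, 3.76, 4.10 and 4.15 in control lines 1 to 5 (difference 0.37 ± 0.14, SE). The groups overlapped for all 46 members, where they did not overlap for 1.59% of features and were separate with heat-selected lines higher for 0.803%.

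Acp1 had the largest difference of the family, at 1.88 ± 0.92 (SE, adjusted p = 0.567 from limma), with means of 7.10 ± 2.39 in heat-selected lines and 5.21 ± 0.42 in control lines (SD, n = 5 each). It was 0.85 without heat-selected line 3. The difference of Acp65Aa was 0.74 ± 0.70 (SE) with all lines and -0.023 without heat-selected line 3, and that of Cpr92F was 0.77 ± 0.57 with all lines and 0.10 without it. Cpr49Ae differed by 0.95 ± 0.46 (SE) and by 0.63 without that line. Cpr67B, whose difference was 0.33 without that line, had 5.94, 6.63, 6.51, 6.69 and 6.11 in heat-selected lines 1 to 5, against 6.44, 5.77, 5.66, 5.93 and 6.28 in control lines 1 to 5, a difference with all lines of 0.36 ± 0.18 (SE, adjusted p = 0.611 from limma).

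Beyond these genes the groups lay close together. The difference was at most 0.1 in size for 57 of 73 members and beyond 0.5 for 4, the 4 genes Acp1, Cpr49Ae, Cpr92F and Acp65Aa. Of the 57, 26 were below the filter. The 36 members that never exceeded the probe sets of other organisms differed by -0.086 to 0.10, and so little signal leaves little room for a difference. Means were higher in the heat-selected lines for 57 of the 73 members, a larger share than the 56.1% of all features, and lower for 16. The members share their lines, so this share was not tested. Control line 1 held the lowest value of 51 of the 73, and its part in the share was not tested either. The median difference of the 73 members was 0.021, against 0.0089 over all features, and -0.0012 without line 1 of both groups. The median of the members lay between -0.019 and 0.050 when 1 line was left out, so its sign changed with the lines used. The lowest difference was that of Cpr72Ec (-0.15 ± 0.19, SE), whose level was 4.59 in heat-selected line 1 and 5.38 in control line 1, with 4.23 to 4.40 elsewhere. These were the 2 arrays with the largest 3′ excess, and its part in this value was not tested.

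**Figure D3:**
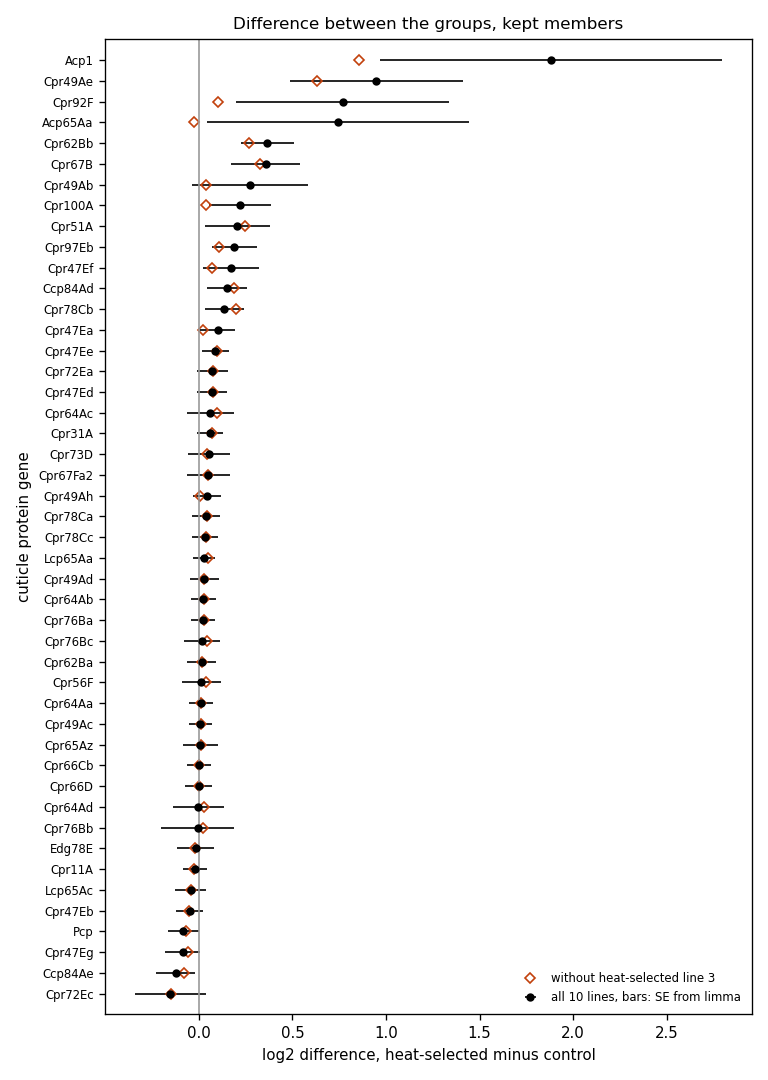
Log2 difference between heat-selected and control lines for the 46 cuticle protein genes that were tested. Black points use all 10 lines, with the SE from limma as bars, and open diamonds leave out heat-selected line 3. Acp1, Cpr49Ae, Cpr92F and Acp65Aa lie furthest from 0, with diamonds at 0.85, 0.63, 0.10 and -0.023, and most other genes lie near 0.

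The genes named for larval and pupal cuticle were mostly near the level of the probe sets of other organisms or varied little. Pcp, a pupal cuticle gene that lies inside an intron of the purine synthesis gene Gart, ranged from 3.50 to 3.75 in heat-selected lines and from 3.58 to 3.96 in control lines. Among the ecdysone-dependent genes, Edg78E ranged from 3.61 to 3.94 in heat-selected and from 3.51 to 3.95 in control lines, while Edg84A and Edg91 did not exceed 2.69 in any line. The larval gene Lcp65Aa was brighter but nearly constant, at 5.13 to 5.28 in heat-selected and 5.09 to 5.24 in control lines. Ccp84Ad (difference 0.15) and Ccp84Ae (difference -0.12), of a cluster expressed in larvae, lay at 7.24 to 7.62 and 6.12 to 6.51 in heat-selected lines, against 7.10 to 7.53 and 6.25 to 6.72 in control lines. The probe set of Ccp84Ad is of the type that can match several members of a gene family, so its value is uncertain.

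A different pair of lines stood out for some of these genes, a pattern noticed after the values were seen. In heat-selected line 2 and control line 3, 4 of 73 members (Ccp84Ag, Cpr51A, Cpr64Ab and Cpr65Ea) had their 2 highest levels, as did 0.477% of all features. Ccp84Ag was at 3.68 in heat-selected line 2 and at 2.22 to 2.39 in the other heat-selected lines, against 2.81 in control line 3 and 2.27 to 2.51 in the other control lines. Cpr65Ea was at 3.34 in heat-selected line 2 and at 2.41 to 2.54 in the other heat-selected lines, against 3.14 in control line 3 and 2.37 to 2.61 in the other control lines. Cpr51A was at 5.64 in heat-selected line 2 and at 5.16 in control line 3. Most of these levels lie within the range of probe sets of other organisms, and the excess of Cpr64Ab was 0.12 in heat-selected line 2.

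The same lines were the highest for a probe set shared by the larval cuticle genes Lcp65Ag1, Lcp65Ag2 and Lcp65Ag3, which names no gene alone and is outside the members. It was at 3.91, 7.51, 4.94, 4.65 and 4.21 in heat-selected lines 1 to 5, against 3.92, 3.83, 6.85, 4.38 and 4.29 in control lines 1 to 5. This was the largest joint excess of these 2 lines on the array, with control line 3, the lower of them, 2.60 log2 units above the median of the other 8 lines (heat-selected line 2 was higher still). A further probe set shared by Lcp65Ag1 and Lcp65Ag2 did not show this: it ranged from 3.38 to 3.70 in heat-selected lines and from 3.30 to 3.66 in control lines. Those levels lie around the top of the range of probe sets of other organisms (3.64), so this probe set shows nothing either way. Which transcript the brighter signal came from cannot be read from these probe sets. The Tweedle genes TwdlD and TwdlN, of another cuticle protein family, reached 6.35 and 4.76 in heat-selected line 2, and 5.48 and 4.18 in control line 3. They were named after their values were seen and are the 2 of 20 Tweedle genes on the array with these lines as the 2 highest.

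**Figure D4:**
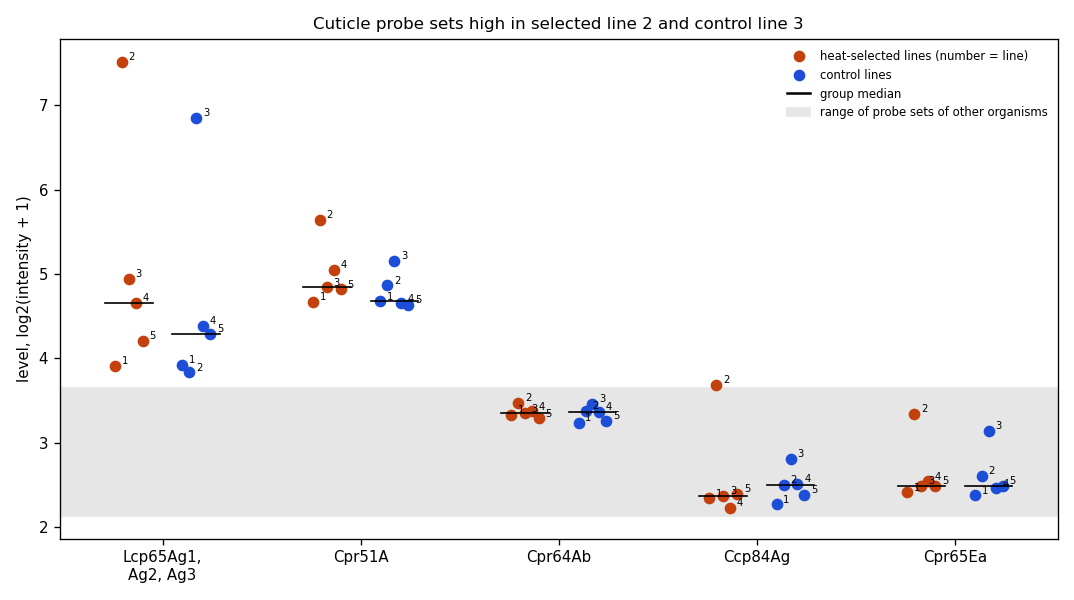
Levels, as log2(intensity + 1), of the probe set shared by 3 Lcp65Ag genes and of 4 cuticle protein genes whose 2 highest levels were in heat-selected line 2 and control line 3. Points are lines with their number, heat-selected left of control, bars are group medians, and the grey band is the range of probe sets of other organisms. The shared probe set reaches 7.51 in heat-selected line 2 and 6.85 in control line 3.

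Many members lie side by side in the genome. Of the 73 genes, 34 lie on chromosome arm 3L, 18 on 2R, 11 on 3R, 6 on 2L and 4 on X, and 43 have another member as the next protein-coding gene. Acp1, Cpr92F and Acp65Aa lie on 2L, 3R and 3L. In the cluster around Acp65Aa, the other 5 members (Lcp65Aa, Lcp65Ac, Lcp65Ad, Lcp65Af and Cpr65Az) had differences of -0.043 to 0.029. Lcp65Aa was at 5.13 in heat-selected line 3 and 5.09 to 5.28 in the other lines, and Lcp65Ac was at 3.87 in heat-selected line 3 and 3.72 to 4.16 in the other lines. The remaining 3 did not exceed the probe sets of other organisms in any line, so they show nothing either way. In the 49A cluster, Cpr49Ae and Cpr49Ab were both among the 5 raised members. Cpr49Ah of the same cluster was at 3.75 in heat-selected line 3, its highest line, and at 3.43 to 3.67 in the other lines. All these levels are near or within the range of probe sets of other organisms (up to 3.64), so little can be read from them. Cpr49Ac was at 4.22 in heat-selected line 3 and 4.12 to 4.32 in the other lines. Cpr49Ad and Cpr49Af did not exceed the probe sets of other organisms.

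The dimmest members varied from line to line much as the probe sets of other organisms did. The 27 members below the filter lay between 1.84 and 3.68, and 26 of them differed by at most 0.1 between the groups. Their median deviation ran from -0.071 to 0.067 in heat-selected lines, and was lowest in control line 1 (-0.15) and highest in control line 2 (0.10). The probe sets of other organisms ran from -0.12 to 0.12 in heat-selected lines, and had the same extremes among the control lines, at -0.22 in line 1 and 0.10 in line 2. Over all 73 members, 51 had their lowest value in control line 1 and 28 their highest in control line 2. The shift was not confined to the dim members. In control line 1 the 46 tested members had a median deviation of -0.145, against -0.063 over all features tested. In control line 2 these were 0.086 and 0.056.

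**Figure D5:**
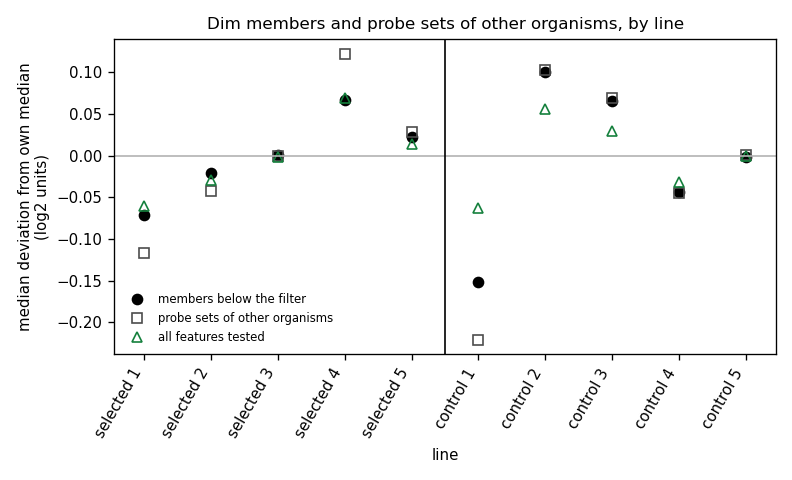
Median deviation of each line from the own median of each feature, in log2 units, for 27 cuticle protein genes below the filter, 23 probe sets of other organisms and all 10960 features tested. Heat-selected lines stand left of control lines. The dim members and the probe sets of other organisms are both lowest in control line 1, at -0.15 and -0.22.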

How the data were processed

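The deposited table holds linear intensities of probe sets. Per the submitters' processing notes, the authors used GCRMA, which corrects background from probe sequence, normalizes arrays together and summarises probes. The sources used here do not give its version. GCRMA draws dim probe sets toward a floor, so differences of weak genes are understated. Groups and line numbers came from the sample titles. Of 14010 probe sets, 44 controls were left out, and a platform annotation gave genes. RefSeq (Release 6 plus ISO1 MT) gave chromosome arms and neighbours.

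Values were analysed as log2(intensity + 1), which understates changes of dim genes. Features above 3 on at least 5 arrays were tested with lmFit and eBayes of limma 3.58.1 (R 4.3.3), two-sided, with Benjamini-Hochberg adjustment over 10960 features and a threshold of 0.05. Precision is limited by the number of arrays; over all features the standard error had a median of 0.095. The fit was tested on simulated data. Named members were the 10 brightest, the 8 with the smallest p, the 8 with the largest gap between the highest line and the median of the others, and Acp1, Acp65Aa, Pcp and the Edg genes. From each other list the 3 smallest p were picked, but TwdlJ, Eip93F, ImpL2, ftz-f1, Cp16 and Femcoat, picked in this way, are not described above. Further genes were named after their values were seen (those of heat-selected line 3, and verm, Vajk3, fln, Act88F, Mlc1, speck, amd, TwdlD, TwdlN, Cpr64Ab, Cpr65Ea and the Lcp65A and Cpr49A neighbours). Members and lists were chosen with earlier results of these data known. Other pseudocounts, filters, normalization, probe choice, eBayes settings, a replicate block and omitted lines were tried.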

Additional observations from a re-analysis of the deposited data

Results flagged for a closer look

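Within groups of 5 lines, 10 of 44 checked groups of the 22 named members held a line whose gap to its nearest neighbour passed Dixon's critical value as a share of the range, where chance gives about 1 in 20. Of these, 4 were in heat-selected line 3, at 11.21 for Acp1, 7.55 for Acp65Aa, 7.13 for Cpr92F and 5.07 for Cpr100A. Heat-selected line 2 stood above its group at 3.68 for Ccp84Ag and 5.71 for Cpr64Ad. Cpr72Ec stood above both groups in line 1, at 4.59 in heat-selected line 1 and 5.38 in control line 1. Edg78E was low in control line 1 at 3.51, and Pcp was high in control line 2 at 3.96. The members were partly named for such gaps, so the count is not independent of the naming.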

How the results depend on the processing

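The count of members at an adjusted p under 0.05 was 0 in all 18 alternatives. The count of members higher at an unadjusted p under 0.05 was 1; it was 0 with a mean level above 5, where fewer genes are tested, and 0 with quantile normalization, 3 without line 1 of both groups, and 0 to 3 with 1 line left out (3 without heat-selected line 1 or 5, 0 without control line 3). The cause was not tested. The 5 members raised in heat-selected line 3 became 2 with a mean level above 5, 4 with a pseudocount of 16 and 3 when more than 2 log2 units were asked, and stayed at 5 with any other line left out. The line number as a replicate block left the members' counts at 0 and 1, with Acp1 still at 1.88, while over all features it made 2 calls against 0 and 1467 against 1043 at an unadjusted p under 0.05. Deviations of same-numbered lines correlated at 0.20 to 0.55 for lines 1 to 4 and at 0.027 for line 5, and lines 1 and 4 correlated best with their own number. The labels give the numbers no shared source, so the lines were not treated as pairs.

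Of 331 differences of named members under alternatives, 307 kept their direction and 24 reversed, with adjusted p of 0.151 to 1.00 from limma. Cpr64Ad was 0.0028 with a pseudocount of 16 and -0.14 to 0.049 with 1 line left out. Quantile normalization gave -0.060 for Cpr56F and -0.044 for Lcp65Aa. Without line 1 of both groups Cpr56F was -0.019, Cpr64Ac -0.019, Cpr72Ec 0.0061 and Lcp65Aa -0.011. With 1 line left out, Acp65Aa ran from -0.023 (without heat-selected line 3) to 1.04, Cpr56F from -0.061 to 0.064, Cpr64Ac from -0.023 to 0.16, Cpr72Ec from -0.23 to 0.055 (without control line 1) and Edg78E from -0.093 to 0.027. Signal near that of probe sets of other organisms limits what can be said of the 36 dimmest members.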
